A study of Rattus norvegicus with 12 samples.

Results

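The genes described here were 10 genes of the hypoxia response that lie outside glycolysis, namely Hif1a, Epas1, Egln1, Egln3, Car9, Bnip3, Adm, Ndrg1, Ddit4 and P4ha1, measured by RNA-seq in rat ovary. They were found by their names in the gene table, which held 19730 genes, and each name matched 1 gene. Expression was given as FPKM, that is, the number of fragments scaled by transcript length and by library size, so that levels of different genes can be compared per length. Genes averaging 1 FPKM or more over the 12 libraries, 13430 in all, entered a test across the table, and 9 of the 10 genes were among them. Car9, which averaged 0.696 FPKM, was not.

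The ovaries came from wild type Sprague Dawley rats at post natal week 15, with 1 library from each of 12 rats and 4 rats in each of 3 groups. The Control group was untreated and received standard food. The PCOS group was a model of polycystic ovary syndrome made with letrozole, an aromatase inhibitor that lowers the synthesis of estrogen from androgen, for 30 days together with a high-fat diet. The PCOS-MV group was given letrozole and the high-fat diet in the same way for 30 days and then mogroside V, a sweet triterpene glycoside of monk fruit, for 30 days. The paper states that all rats were killed at the end of treatment. The ovaries of PCOS, like those of PCOS-MV, were thus taken after the 30 days of letrozole had ended. Letrozole and diet were given together, so their parts in a difference from Control cannot be told apart. Whole ovaries were sequenced, so fewer cells of a type and less RNA per cell cannot be told apart either.

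Cells sense low oxygen through the hypoxia-inducible factors (HIFs). The alpha subunits HIF-1 alpha (Hif1a) and HIF-2 alpha (Epas1) are made all the time, and in the presence of oxygen they are marked by prolyl hydroxylases for breakdown. When oxygen falls, the alpha subunits persist, pair with a beta subunit and switch on genes of vessel growth, metabolism, pH control and matrix, so that much of the control lies at the protein and is not seen in RNA. In the ovary the pathway is known for its part in the growth of vessels into the corpus luteum, the hormone-secreting body that forms after ovulation.

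Of the 9 genes tested, Adm alone fell in PCOS relative to Control, where 15.6% of all genes tested fell, and Hif1a alone rose in PCOS-MV relative to PCOS, where 14.3% rose. Adm, which encodes the vessel-widening peptide adrenomedullin, was at 7.16 ± 2.56 FPKM (SD, n = 4) in Control, 2.19 ± 1.03 in PCOS and 4.24 ± 1.26 in PCOS-MV. Hif1a was at 83.7 ± 8.32, 75.1 ± 4.18 and 91.9 ± 2.51 FPKM. None of the 9 genes was called between PCOS-MV and Control, where only 0.00745% of all genes tested were called.

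A gene was called at an adjusted p under 0.05 in limma with Benjamini-Hochberg adjustment. In PCOS against Control, 0 of the 9 genes were called higher and 1 lower, where 11.9% of all genes tested were called higher and 15.6% lower. In PCOS-MV against PCOS, 1 was called higher and 0 lower, where 14.3% of all genes were called higher and 11.4% lower. In PCOS-MV against Control, 0 of the 9 were called, and 0.00745% of all genes tested, or 1 gene, were called. At an unadjusted p under 0.05 that comparison had 1142 genes. The median log2 fold change of the 9 genes was -0.15 in PCOS against Control, 0.29 in PCOS-MV against PCOS and 0.02 in PCOS-MV against Control, beside -0.03, 0.03 and -0.00 over all genes tested. Fold changes were computed after adding 1 to each FPKM and taking log2, so the change of a gene at a low level comes out too small. The PCOS libraries entered both of the first comparisons, so a high or low PCOS value moved both.

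**Figure D1:**
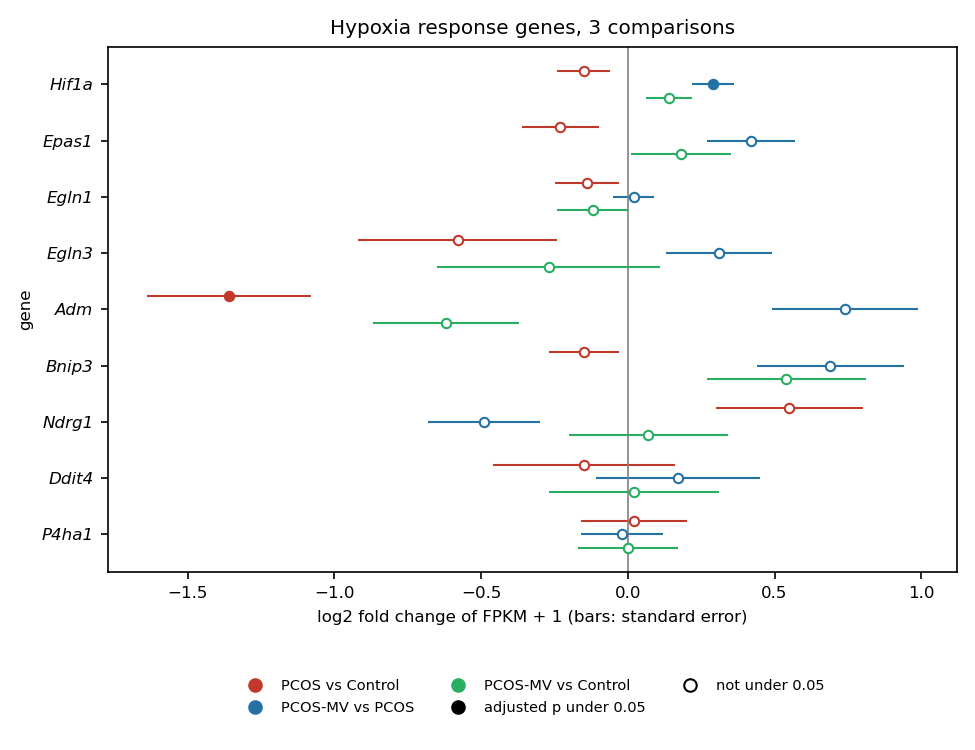
Log2 fold change on the log2(FPKM + 1) scale (horizontal axis) of the 9 genes tested, in each of the 3 comparisons. Points give the limma estimate and bars its standard error on each side. Filled points were called at an adjusted p under 0.05, which were Adm at -1.36 in PCOS against Control and Hif1a at 0.29 in PCOS-MV against PCOS.

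HIFs bind DNA at the hypoxia response element, whose core is ACGTG or GCGTG. The promoters of the genes, from 250 bases before to 50 bases after the gene start, were read from RefSeq (GRCr8) and searched for these letters on both strands. A promoter was held for 9 of the 10 genes (not for Ndrg1), and 6 of the 9 (66.7%) had a match, beside 6483 of 10805 promoters of genes tested and 41.6% of all promoters in the table. The share is near that of other genes tested, and a match is a description of letters and not a site of binding. To show how the matches differ, 30 bases of each promoter with a match are given on the gene's strand, 5′ to 3′. Matched letters within these bases are in capitals.
Hif1a, chr6:98359657-98359686, plus strand: cacacagacgagCACGTGagctgggcagct
Egln1, chr19:69804721-69804750, minus strand: ggcccggcccgccGCGTGcgcgcggccccc
Car9, chr5:62559012-62559041, plus strand: cttatttccgatgCACGTacagcccgtcca
Bnip3, chr1:203155044-203155073, minus strand: gcgCACGCgccgCACGTGccaCACGCgccc
Ddit4, chr20:28437159-28437188, minus strand: gagaacgttgcgaACGTGcgcccggtgcct
P4ha1, chr20:27844897-27844926, plus strand: tacggtaacggtgGCGTGgcaggagttctg
Bnip3 had 4 matches within the 30 bases shown, the nearest beginning 90 bases before the gene start. Hif1a, Egln1, Ddit4 and P4ha1 had further matches outside the bases shown. In Hif1a and Bnip3 the letters CACGTG match on both strands, so they count on each, and they are also the E-box letters that other factors bind. The Car9 match began at base 2 after the gene start. The promoters of Epas1, Egln3 and Adm held no match in this window. That of Epas1 was read on the minus strand of GRCr8, while the authors' coordinates place the gene on the plus strand.

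The genes spanned a wide range of levels. In Control, Ddit4 at 96.3 ± 35.0 FPKM, Hif1a at 83.7 ± 8.32 and Epas1 at 64.3 ± 10.7 were the highest, and the ranges of neighbours in this order overlapped. Bnip3, Ndrg1, P4ha1 and Egln1 followed at means of 25.9 to 34.3 FPKM, with ranges that overlapped from each gene to the next. The range of Bnip3 lay below that of Epas1, while the highest Ndrg1 value, 52.5 FPKM in Control replicate 3, was above the lowest of Epas1, 52.0. Adm lay below them without overlap, and Egln3 and Car9 lay below Adm without overlap, at means of 1.63 and 0.665 FPKM. In PCOS the order was the same except that Ndrg1 and P4ha1 ranked above Bnip3. In PCOS-MV Car9, at a mean of 1.02 FPKM, and Egln3, at 1.01, changed places, with overlapping ranges.

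**Figure D2:**
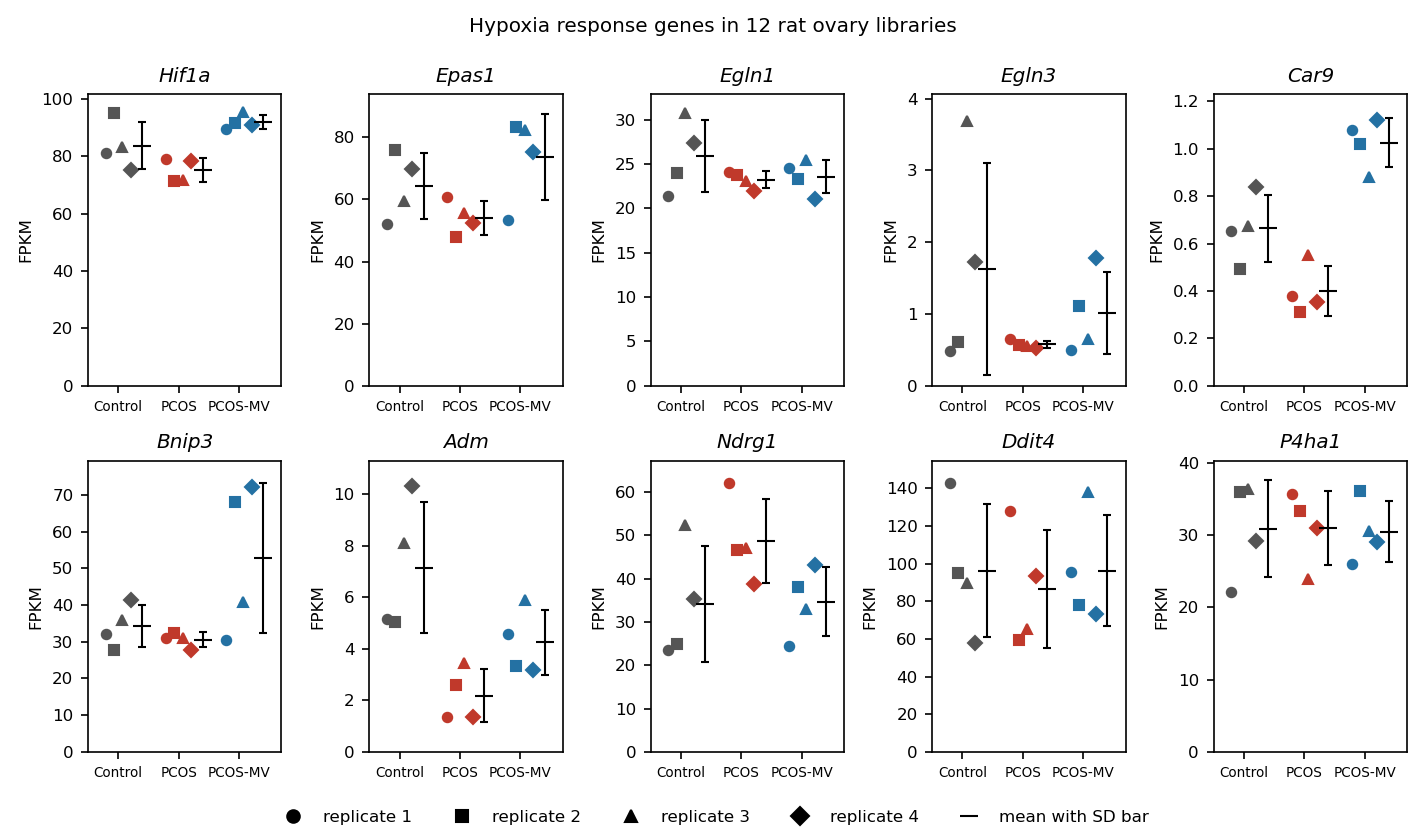
FPKM (vertical axes, each from 0 on its own scale) of the 10 genes in the 12 libraries, with 1 point per library, a symbol for each replicate number, and the mean with its SD at the right of each group. The 4 PCOS values of Adm, 1.34 to 3.46, lie below the 4 Control values, 5.02 to 10.3, and the 4 PCOS-MV values of Hif1a, 89.6 to 95.5, lie above the 4 PCOS values, 71.5 to 79.0.

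Hif1a (ENSRNOG00000008292, plus strand of chromosome 6 from 96810907 to 96856052 in the authors' coordinates) encodes the widely expressed oxygen-regulated alpha subunit. Its FPKM was 81.2, 95, 83.3 and 75.2 in Control replicates 1 to 4, 79.0, 71.5, 71.6 and 78.5 in PCOS, and 89.6, 91.6, 95.5 and 90.9 in PCOS-MV. The PCOS-MV values were the closest together and all lay above PCOS, where 16.7% of all genes tested were higher without overlap, while Control overlapped both groups. PCOS-MV was 1.22 times PCOS, with a log2 fold change of 0.29 ± 0.07 (SE, adjusted p = 0.0139, limma, 95% confidence interval 0.14 to 0.44). The two-sided exact permutation test of 4 against 4 libraries gave p = 0.0286, the smallest it can give, and 30 such tests were run over the 10 genes. The limma call was kept without each of the 8 libraries in turn, at an adjusted p of 0.0191 to 0.0497. The log2 fold change was -0.15 (adjusted p = 0.231, limma) in PCOS against Control and 0.14 (adjusted p = 0.653, limma) in PCOS-MV against Control.

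Epas1 (ENSRNOG00000021318, plus strand of chromosome 6, 10306405 to 10387265) encodes HIF-2 alpha, which is prominent in endothelial cells. Its FPKM was 52.0, 75.9, 59.5 and 69.9 in Control, 60.7, 47.8, 55.6 and 52.4 in PCOS, and 53.5, 83.2, 82.3 and 75.3 in PCOS-MV. In PCOS-MV 3 of the 4 libraries lay above all PCOS libraries, and replicate 1 lay among them. Between PCOS-MV and PCOS, Epas1 had a log2 fold change of 0.42 ± 0.15 (SE, 95% confidence interval 0.08 to 0.75), which was not called (adjusted p = 0.0677, limma). Without PCOS-MV replicate 1 it was 0.56 and called (adjusted p = 0.00585, limma). Only this 1 of the 8 fits with a library left out called Epas1, and the adjusted p in limma was up to 0.162 in the others. Between PCOS and Control the log2 fold change was -0.23 (adjusted p = 0.209, limma), and between PCOS-MV and Control 0.18 (adjusted p = 0.750, limma).

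Egln1 (ENSRNOG00000019773, minus strand of chromosome 19, 57662278 to 57699113) encodes PHD2, the main hydroxylase that marks HIF alpha subunits. Its FPKM was 21.4, 24.0, 30.8 and 27.4 in Control, 24.1, 23.8, 23.1 and 21.9 in PCOS, and 24.5, 23.3, 25.4 and 21.1 in PCOS-MV. All 3 groups overlapped, and Control had the widest spread. The log2 fold change was -0.14 ± 0.11 in PCOS against Control (adjusted p = 0.374, limma) and 0.02 ± 0.07 in PCOS-MV against PCOS (adjusted p = 0.882, limma), with a 95% confidence interval of -0.15 to 0.19 for the latter.

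Egln3 (ENSRNOG00000005053, minus strand of chromosome 6, 75050329 to 75075795) encodes PHD3, a hydroxylase that is itself induced by HIFs. Its FPKM was 0.487, 0.613, 3.69 and 1.72 in Control, 0.650, 0.571, 0.549 and 0.524 in PCOS, and 0.503, 1.11, 0.646 and 1.78 in PCOS-MV. Control replicate 3 was the highest of the 12 libraries, and the 4 PCOS libraries lay within a narrow range that Control and PCOS-MV overlapped. The log2 fold change in PCOS against Control was -0.58 ± 0.34 (adjusted p = 0.237, limma) and became -0.25 (adjusted p = 0.410) without Control replicate 3. It was 0.31 (adjusted p = 0.250, limma) in PCOS-MV against PCOS.

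Control replicate 3 stood apart from the other Control libraries. The ciliated oviduct markers, 3 genes in all, summed to 16.9 FPKM in it and to 2.05 to 3.86 in the other 3, the 6 immediate early genes to 361 against 114 to 179.8, and the 6 smooth muscle markers to 978 against 345 to 509. It also had the highest Control value of Egln1, Egln3, Ndrg1 and P4ha1. The part of other tissue in these values was not tested.

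Adm (ENSRNOG00000027030, plus strand of chromosome 1, 175445088 to 175447259) encodes adrenomedullin, a secreted peptide that widens vessels and acts on endothelium. Its FPKM was 5.14, 5.02, 8.11 and 10.3 in Control, 1.37, 2.58, 3.46 and 1.34 in PCOS, and 4.58, 3.34, 5.88 and 3.18 in PCOS-MV. All PCOS values lay below all Control values, where 17.2% of all genes tested were lower without overlap, and PCOS-MV overlapped both groups. PCOS was 0.305 times Control, with a log2 fold change of -1.36 ± 0.28 (SE, adjusted p = 0.00723, limma, 95% confidence interval -1.99 to -0.73) and an exact permutation p of 0.0286. The call was kept without each of the 8 libraries in turn, at an adjusted p of 0.00654 to 0.0236 in limma.

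Between PCOS-MV and PCOS, Adm had a log2 fold change of 0.74 ± 0.25 (95% confidence interval 0.18 to 1.31), which was not called (adjusted p = 0.0573, limma) and had an exact permutation p of 0.0857. Without PCOS replicate 3, the highest of its group, it was 0.92 (adjusted p = 0.0295, limma). Between PCOS-MV and Control the log2 fold change of Adm was -0.62, with a 95% confidence interval of -1.18 to -0.05 that is not adjusted for the number of genes tested. It was not called (adjusted p = 0.571, limma), in a comparison where 0.00745% of all genes tested were called.

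Car9 (ENSRNOG00000017073, plus strand of chromosome 5, 59008933 to 59015528) encodes carbonic anhydrase IX, a cell surface enzyme that helps control pH outside the cell and is a much used marker of hypoxia. Its FPKM was 0.652, 0.492, 0.676 and 0.838 in Control, 0.380, 0.312, 0.552 and 0.355 in PCOS, and 1.08, 1.02, 0.883 and 1.12 in PCOS-MV. PCOS-MV lay above both other groups without overlap, and PCOS and Control overlapped. The level was low throughout, with a highest value of 1.12 FPKM, and since the files give no read numbers the counting error of such values is unknown. PCOS-MV was 2.56 times PCOS and 1.54 times Control, each with an exact permutation p of 0.0286, and PCOS against Control had an exact permutation p of 0.0571.

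Car9 was not among the genes tested across the table. With no filter on low values, limma gave it a log2 fold change of 0.53 ± 0.06 (adjusted p = 0.00232) in PCOS-MV against PCOS, -0.25 ± 0.08 (adjusted p = 0.0627) in PCOS against Control and 0.28 ± 0.07 (adjusted p = 0.537) in PCOS-MV against Control. Of all genes tested, 16.7% were higher without overlap in PCOS-MV than in PCOS, and 2.81% in PCOS-MV than in Control. These shares are over genes that passed the filter, which Car9 did not.

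Bnip3 (ENSRNOG00000017243, minus strand of chromosome 1, 211248098 to 211265282) encodes a mitochondrial outer membrane protein that takes part in cell death and in the removal of mitochondria. Its FPKM was 32.1, 27.7, 35.9 and 41.4 in Control, 30.9, 32.5, 31.0 and 27.7 in PCOS, and 30.4, 68.1, 40.8 and 72.0 in PCOS-MV. PCOS-MV replicates 2 and 4 lay far above all other libraries, while replicate 1 lay within PCOS, so that the SD of PCOS-MV was 20.4 FPKM and that of PCOS 2.02. Bnip3 had a log2 fold change between PCOS-MV and PCOS of 0.69 ± 0.25 (95% confidence interval 0.11 to 1.27), which was not called (adjusted p = 0.0806, limma) and had an exact permutation p of 0.114. Without PCOS-MV replicate 1 it was 0.92 (adjusted p = 0.0125, limma). Only this 1 of the 8 fits with a library left out called Bnip3. Without PCOS-MV replicate 2 or 4 the log2 fold change was 0.54 or 0.51 (adjusted p = 0.174 or 0.166, limma). In PCOS against Control it was -0.15 (adjusted p = 0.383, limma), and in PCOS-MV against Control 0.54 (adjusted p = 0.619, limma).

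Ndrg1 (ENSRNOG00000007393, minus strand of chromosome 7, 107734323 to 107775714) encodes a cytoplasmic stress and differentiation protein. Its FPKM was 23.6, 24.9, 52.5 and 35.4 in Control, 62.0, 46.6, 47.1 and 38.8 in PCOS, and 24.4, 38.1, 33.0 and 43.1 in PCOS-MV. Among the 9 genes tested, only Ndrg1 and P4ha1 had a log2 fold change above 0 in PCOS against Control, and the 3 groups of Ndrg1 overlapped. It was 0.55 ± 0.25 (adjusted p = 0.137, limma) in PCOS against Control, and 0.78 and called (adjusted p = 0.0161, limma) without Control replicate 3, the highest Control value. Only this 1 of the 8 fits with a library left out called Ndrg1, and the adjusted p in limma was up to 0.287 in the others. The log2 fold change was -0.49 ± 0.19 (adjusted p = 0.0965, limma) in PCOS-MV against PCOS.

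Ddit4 (ENSRNOG00000057078, minus strand of chromosome 20, 29509289 to 29511382) encodes REDD1, a stress-induced inhibitor of the growth kinase complex mTORC1. Its FPKM was 143, 95.1, 89.8 and 57.7 in Control, 128, 59.4, 65.4 and 93.4 in PCOS, and 95.5, 78.2, 138 and 73.1 in PCOS-MV. The spread within each group exceeded the differences between group means. Ddit4 had a log2 fold change of -0.15 (95% confidence interval -0.85 to 0.55, adjusted p = 0.752, limma) in PCOS against Control and 0.17 (95% confidence interval -0.45 to 0.80, adjusted p = 0.679, limma) in PCOS-MV against PCOS.

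P4ha1 (ENSRNOG00000050655, plus strand of chromosome 20, 28920616 to 28971966) encodes an alpha subunit of collagen prolyl 4-hydroxylase, which modifies collagen so that its triple helix is stable. Its FPKM was 22.1, 35.9, 36.3 and 29.2 in Control, 35.6, 33.3, 23.9 and 31.0 in PCOS, and 26.0, 36.1, 30.6 and 29.0 in PCOS-MV. The group means were 30.9, 31.0 and 30.4 FPKM and the groups overlapped throughout. P4ha1 had a log2 fold change of 0.02 (95% confidence interval -0.39 to 0.42, adjusted p = 0.955, limma) in PCOS against Control and -0.02 (95% confidence interval -0.34 to 0.30, adjusted p = 0.933, limma) in PCOS-MV against PCOS.

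The machinery around the HIF subunits was described with 16 further genes, of which 14 were tested. In PCOS against Control 1 was called higher and 3 lower, with a median log2 fold change of -0.11. Of all genes tested, 11.9% were called higher and 15.6% lower. Os9, which binds HIF-1 alpha and its hydroxylases, was at 0.21 ± 0.06 (adjusted p = 0.0390, limma). Lower were the beta subunit Arnt2 at -0.73 ± 0.22 (adjusted p = 0.0384), the scaffold of hydroxylase and VHL Limd1 at -0.60 ± 0.17 (adjusted p = 0.0309) and the hydroxylase Egln2 at -0.26 ± 0.07 (adjusted p = 0.0293, all limma). With 1 of the 8 libraries left out at a time, 0 to 3 were called: Arnt2 and Os9 kept their calls in 1 of the 8 fits, and Egln2 and Limd1 in 3 of the 8. In PCOS-MV against PCOS, where 14.3% of all genes tested were called higher and 11.4% lower, the median of the components was 0.14. Here 3 components were called higher and 0 lower. They were Arnt2 at 0.50 ± 0.13 (adjusted p = 0.0194), Limd1 at 0.40 ± 0.10 (adjusted p = 0.0201) and Cul2, the cullin of the VHL ubiquitin ligase, at 0.29 ± 0.07 (adjusted p = 0.0177, limma). Arnt2 and Cul2 kept these calls in 7 of the 8 fits with a library left out and Limd1 in 5 of the 8. In 1 limma model for all 12 libraries, 0 of the components were called in PCOS-MV against PCOS, with adjusted p-values of 0.0907 for Arnt2, 0.0922 for Limd1 and 0.0523 for Cul2. None was called in PCOS-MV against Control, where the median was 0.02 and only 0.00745% of all genes tested were called.

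Hif3a, an alpha subunit with forms that dampen the HIF response, was below the filter with a mean over all libraries of 0.760 FPKM. It was at 0.264 to 0.510 FPKM in Control, 1.40 to 1.81 in PCOS and 0.221 to 0.570 in PCOS-MV. PCOS lay above both other groups without overlap (exact permutation p = 0.0286 for each). Of all genes tested, 13.8% were higher without overlap in PCOS than in Control. In PCOS-MV against PCOS 13.3% were lower without overlap. The main beta subunit Arnt was at 37.9, 43.7 and 36.9 FPKM and was not called in PCOS against Control (adjusted p = 0.102, limma) or in PCOS-MV against PCOS (adjusted p = 0.0779). Vhl, which recognises hydroxylated HIF alpha, and Hif1an, the asparaginyl hydroxylase of HIF, were not called either.

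**Figure D3:**
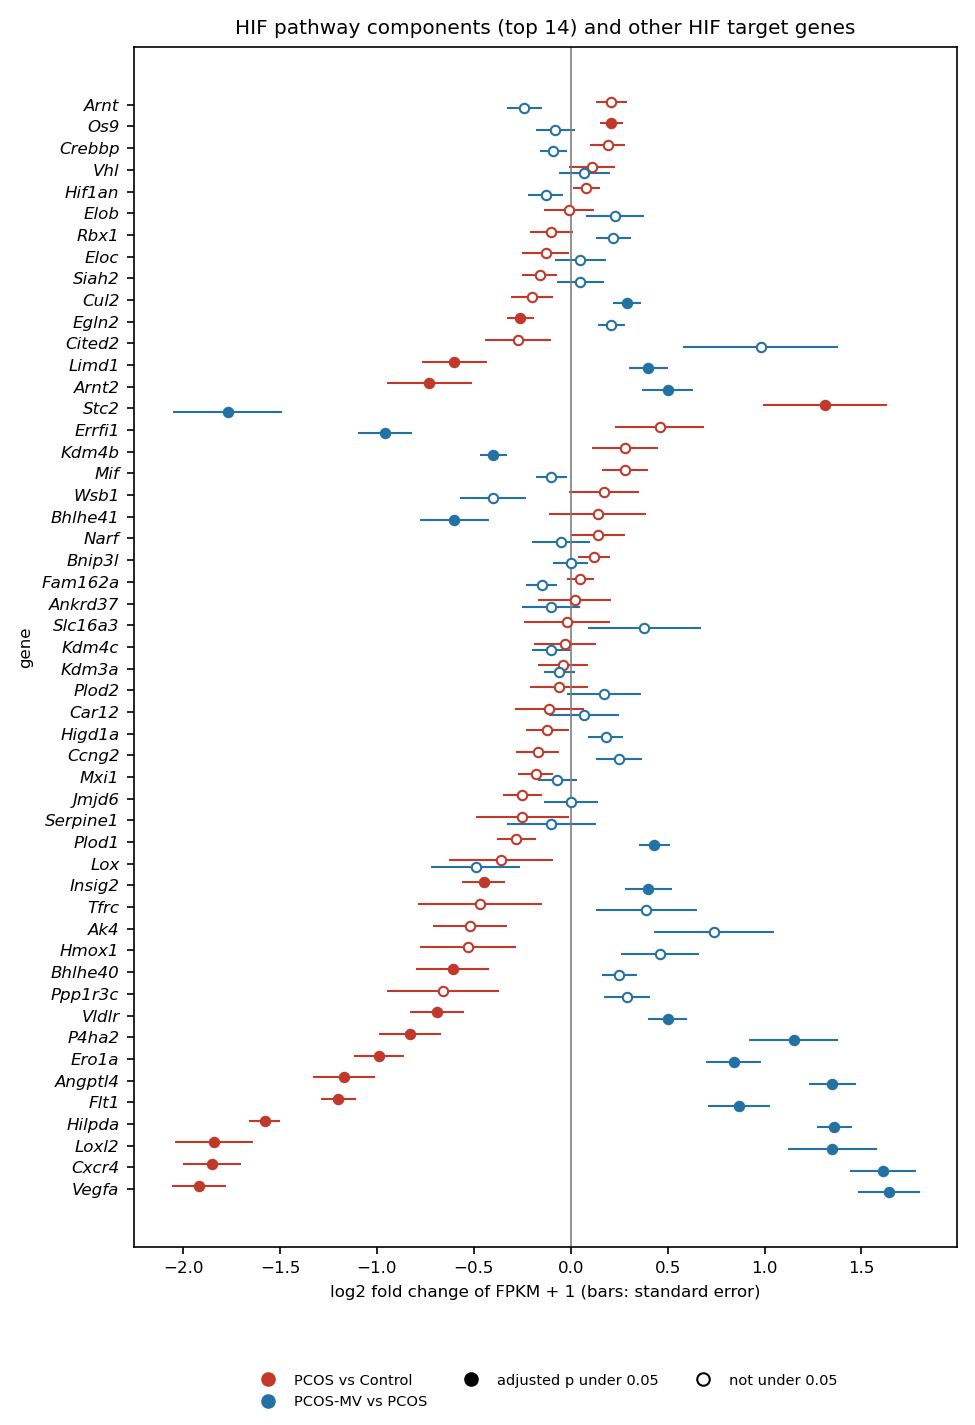
Log2 fold change on the log2(FPKM + 1) scale of the genes tested among the HIF pathway components and the other HIF target genes. PCOS against Control and PCOS-MV against PCOS are shown, with bars for the standard error on each side. Filled points were called at an adjusted p under 0.05, and Vegfa, at -1.92 and 1.64, lies near the end of each range.

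Of 37 other known HIF targets that were tested, 1 was called higher and 11 lower in PCOS against Control, with a median log2 fold change of -0.25. In PCOS-MV against PCOS 11 were called higher and 4 lower, with a median of 0.18. None was called in PCOS-MV against Control, where the median was -0.13 and only 0.00745% of all genes tested were called. The number called was 10 to 15 in the first comparison and 13 to 15 in the next when libraries were left out in turn. Of all genes tested, 11.9% were called higher and 15.6% lower in PCOS against Control, and 14.3% and 11.4% in PCOS-MV against PCOS.

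Vegfa, the main growth factor of blood vessels, was at 54.5, 51.0, 52.0 and 40.1 FPKM in Control, 14.8, 9.59, 13.5 and 11.7 in PCOS, and 38.2, 43.0, 50.4 and 32.0 in PCOS-MV. Every PCOS library was below every library of the other groups. The log2 fold change was -1.92 ± 0.14 (adjusted p = 4.45e-05, limma) in PCOS against Control and 1.64 ± 0.16 (adjusted p = 3.65e-04) in PCOS-MV against PCOS. Hilpda, an inhibitor of lipid droplet breakdown, was at 12 ± 1.10 FPKM in Control, 3.36 ± 0.205 in PCOS and 10.2 ± 0.967 in PCOS-MV, the order of groups kept below, with log2 fold changes of -1.58 ± 0.08 (adjusted p = 9.59e-06, limma) and 1.36 ± 0.09 (adjusted p = 5.97e-05).

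Other target genes had values of the same kind. The chemokine receptor Cxcr4 was at means of 30.2, 7.55 and 25.5 FPKM, with log2 fold changes of -1.85 and 1.61. Loxl2, which crosslinks collagen, was at 36.0, 9.14 and 25.6 FPKM, with -1.84 and 1.35. Angptl4, a secreted inhibitor of lipoprotein lipase, was at 62.7, 27.2 and 70.5 FPKM, with -1.17 and 1.35. All of these were called in both comparisons, as were Flt1, Ero1a and P4ha2, which were named after their values were seen. Their promoters differed in the letters searched. The windows of Vegfa and Stc2 held no match. Errfi1 and Bhlhe41, described below, had 2 and 4 matches. Hilpda had 3 matches, and Cxcr4 and Angptl4 1 each. For these 3 genes the bases around 1 match are shown, with its letters in capitals.
Hilpda, chr4:58836334-58836363, plus strand: atcactgcaagtcGCGTGtttcccgtgact
Cxcr4, chr13:42634325-42634354, minus strand: cgccgccccgcgaGCGTGtttttataaaag
Angptl4, chr7:15258895-15258924, minus strand: gtgcagagacagtCACGTcgctcatggggt
Stc2, a secreted glycoprotein induced by hypoxia and other stress, went the other way, at 10.5, 27.2 and 7.06 FPKM. Its log2 fold changes were 1.31 ± 0.32 (adjusted p = 0.0160, limma) in PCOS against Control and -1.77 ± 0.28 (adjusted p = 0.00272) in PCOS-MV against PCOS. Errfi1, a feedback inhibitor of the EGF receptor, and Bhlhe41, a transcriptional repressor of the circadian clock, were lower in PCOS-MV than in PCOS, by log2 fold changes of -0.96 (adjusted p = 0.00201, limma) and -0.60 (adjusted p = 0.0395). The Bhlhe41 call was kept in only 2 of the 8 fits with a library left out (PCOS replicate 2 or PCOS-MV replicate 3), and was lost with no filter on low values (adjusted p = 0.0668, limma) and in 1 model for all 12 libraries (adjusted p = 0.0778).

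**Figure D4:**
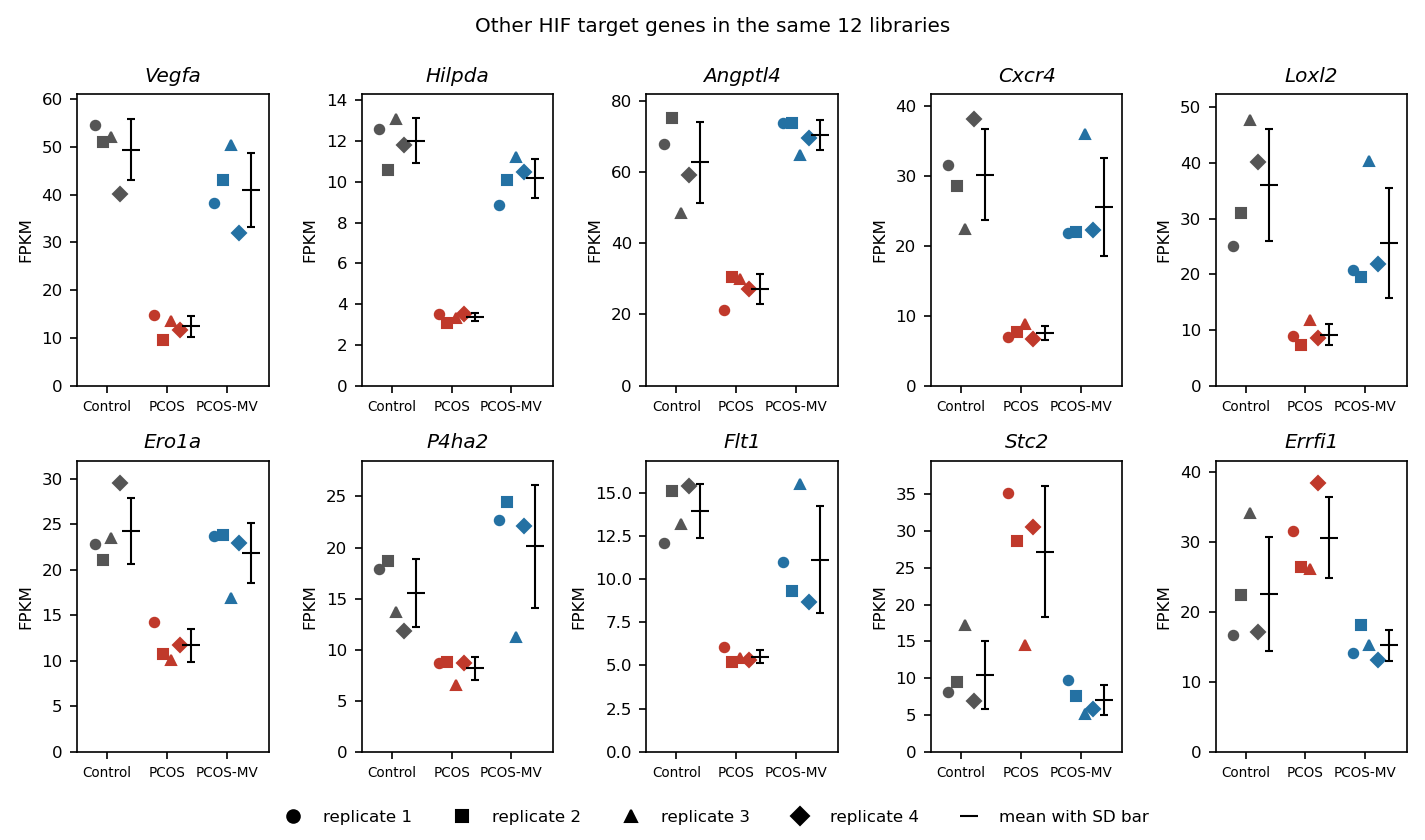
FPKM (vertical axes, each from 0 on its own scale) of 10 other HIF target genes in the 12 libraries, with a symbol for each replicate number and the mean with its SD at the right of each group. In the panel of Vegfa the PCOS values, 9.59 to 14.8, lie below all others, and in that of Stc2 the PCOS mean of 27.2 is the highest of the 3 groups.

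Markers of endothelium were set beside these targets. The 8 endothelium markers summed to 167 to 204 FPKM in Control, 105 to 126 in PCOS and 147 to 191 in PCOS-MV. In PCOS against Control 7 of the 8 were called lower and 1 higher (Vwf), and in PCOS-MV against PCOS 4 were called higher and 0 lower. Luteal markers, 7 genes, summed to 4282 to 8018, 1831 to 3492 and 2969 to 6931 FPKM, and 6 theca markers to 116 to 155, 1697 to 3185 and 109.5 to 196. The 10 granulosa markers summed to 714 to 1034, 998 to 1439 and 704 to 1044. Markers of the labelled tissue were thus present in all groups. In PCOS against Control, 1 luteal marker was called higher and 4 lower, and 3 theca markers higher and 1 lower. Granulosa markers had 3 higher and 1 lower. In PCOS-MV against PCOS these counts were 2 and 1, 0 and 4, and 1 and 3. In PCOS, Cyp17a1 and Insl3 made up most of the theca sum, at means of 1190.4 and 1032 FPKM. Of all genes tested, 11.9% were called higher and 15.6% lower in PCOS against Control, and 14.3% and 11.4% in PCOS-MV against PCOS. The part of cell makeup in the values of Adm, Hif1a, Epas1 and the other targets was not tested.

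The genes that work with single members were looked at by role. Beside the counts that follow, 11.9% of all genes tested were called higher and 15.6% lower in PCOS against Control. In PCOS-MV against PCOS these shares were 14.3% and 11.4%. Adrenomedullin acts through the receptor Calcrl with a RAMP partner and is amidated by Pam, and of 6 such genes tested 1 was called higher and 2 lower in PCOS against Control. Ramp2 was at 39.9, 25.0 and 30.8 FPKM, with -0.65 ± 0.10 (adjusted p = 0.00206, limma) in PCOS against Control, and Ramp3 at 4.73, 2.01 and 3.00 FPKM, with -0.86 ± 0.25 (adjusted p = 0.0345). Pam was at 83.9, 109.9 and 84.7 FPKM, with 0.39 ± 0.10 (adjusted p = 0.0190, limma). In PCOS-MV against PCOS 0 were called higher and 1 lower, Pam at -0.38 ± 0.10 (adjusted p = 0.0216, limma). Calcrl itself was not called. The Ramp3 call was kept in 2 of the 8 fits with a library left out (Control replicate 1 or 2) and was lost with no filter on low values (adjusted p = 0.0646, limma). The Pam calls were kept in 7 of the 8 such fits for PCOS against Control (lost without PCOS replicate 4) and in 5 of the 8 for PCOS-MV against PCOS (lost without PCOS replicate 1 or 4 or PCOS-MV replicate 4). Ramp2, Ramp3 and Pam were named after their values were seen.

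Around P4ha1, 5 collagen prolyl and lysyl hydroxylase genes were tested. In PCOS against Control 0 were called higher and 1 lower, and in PCOS-MV against PCOS 4 were called higher and 0 lower. P4ha2, the paralog of P4ha1, was at 15.5, 8.19 and 20.1 FPKM, with -0.83 ± 0.16 (adjusted p = 0.00489, limma) and 1.15 ± 0.23 (adjusted p = 0.00767). P4hb, the beta subunit that both alpha subunits need, was at 238, 176 and 291 FPKM, with 0.72 ± 0.09 (adjusted p = 0.00102, limma) in PCOS-MV against PCOS. The lysyl hydroxylases Plod1 and Plod3 were at 0.43 and 0.38 on the log2 scale. P4hb, Plod1 and Plod3 were named after their values were seen. P4ha1 was not called in any comparison.

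Around Ddit4, 6 brakes of mTORC1 were tested, with 2 called higher and 0 lower in PCOS against Control and 1 higher and 1 lower in PCOS-MV against PCOS. Sesn2, a stress-induced brake, was at 6.65, 11.4 and 7.78 FPKM, with 0.68 ± 0.13 (adjusted p = 0.00621, limma) and -0.48 ± 0.13 (adjusted p = 0.0243). The latter call was kept in 5 of the 8 fits with a library left out and was lost without PCOS replicate 4 or PCOS-MV replicate 1 or 4. Of 4 tested mitophagy genes around Bnip3, and of 2 Ndrg relatives, 0 were called in limma in either direction in any comparison.

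Around Car9, 7 carbonic anhydrases were tested, of which 2 were called higher and 2 lower in PCOS against Control, and 1 higher and 2 lower in PCOS-MV against PCOS. Car2, the main cytosolic form, was at means of 7.27 and 28.1 FPKM in Control and PCOS and between 3.75 and 42.2 FPKM in PCOS-MV (1.75 ± 0.39, adjusted p = 0.0110, limma, in PCOS against Control). The Car2 call was lost in 1 model for all 12 libraries (adjusted p = 0.0788, limma). Car11, a relative without catalytic activity, was at 4.35, 7.44 and 4.41 FPKM (0.66 ± 0.14, adjusted p = 0.00764). Car3, a form of muscle and fat, was at 26.7, 3.41 and 3.12 FPKM (-2.62 ± 0.58, adjusted p = 0.0109), and beside it 5 adipocyte markers summed to 24.9 to 83.3 FPKM in Control, 13.9 to 25.4 in PCOS and 10.6 to 17.0 in PCOS-MV, with 3 of 3 tested called lower in PCOS against Control. The part of fat tissue in the Car3 value was not tested.

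The patterns of Hif1a and Adm, the only members called, were set against those of genes with a symbol that averaged 5 FPKM or more. Genes with only a provisional name, such as LOC or RGD, were left out. The measure was the root mean square distance of z-scored log2(FPKM + 1) over 12 libraries. Nearest to Hif1a were Gpnmb, a glycoprotein of macrophages and other cells (distance 0.356, means 88.4, 25.5 and 104 FPKM), Mmp12, a macrophage elastase (0.374, means 8.04, 1.30 and 16), and Bcar1, an adhesion adaptor (0.383, means 29.9, 22.1 and 37.7). Nearest to Adm were Plpp1, a lipid phosphate phosphatase (0.331, means 18.3, 12.9 and 15.9), Kctd9 (0.332, means 7.75, 4.58 and 6.33) and Scarf1, a scavenger receptor of endothelium (0.338, means 10.3, 7.66 and 9.17). The amplitude of a gene does not enter this distance. Each nearest gene was lowest in PCOS on average, as Hif1a and Adm were, which follows from choosing genes by this distance.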

How the data were processed

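Ovarian RNA from 12 rats, 1 library each, was analysed, with groups taken from the titles and treatments in the labels. The authors deposited FPKM per gene. The paper's methods name HISAT2 and featureCounts, while the submitters' processing notes name STAR 2.5.1b and HTSeq 0.6.0. The genome build is not given in the sources used here, so gene coordinates are the authors' own and promoters and older symbols come from RefSeq GRCr8. The authors' columns of group means, fold changes and p-values were not used. The table repeats a gene on each of 26928 transcript lines, with no difference between lines, and 1 line was kept. Depth is unknown, since FPKM does not give read numbers.

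Each FPKM value plus 1 was log2-transformed and tested in R 4.3.3 by limma 3.58.1 (eBayes with trend), 4 libraries against 4 without a covariate, at a Benjamini-Hochberg adjusted p under 0.05, over genes averaging 1 FPKM or more. Exact permutation tests were two-sided. Python 3.11.15, pandas 2.3.3, scipy 1.17.1 and matplotlib 3.10.9 were used. The fit was tested on simulated data. No batch is given in the labels. No libraries were identical, and the correlation of log2(FPKM + 1) within a group was 0.9208 to 0.9784.

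The members and all lists were chosen with earlier results of these data known. Named genes were the members, the HIF pathway components, the 4 called genes with the largest rise and the 4 with the largest fall among pathway and partner lists in each of 2 comparisons, and the 3 genes nearest to each member called; others are named as added. List genes that matched no row were not analysed here. Alternatives covered the pseudocount, the filter, 1 model for 12 libraries, rescaled libraries, a 2-fold threshold, a replicate block and each library left out.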

Additional observations from a re-analysis of the deposited data

Results flagged for a closer look

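In 150 groups of 4 libraries, taken over the members and the other named or called genes, the highest or the lowest library was set against the range of its group by Dixon's criterion, and 10 stood apart where chance would give about 7.50, or 1 in 20. None was a value of a member. In PCOS-MV replicate 3, Cxcr4 was at 36.0 FPKM (21.9 to 22.2 in the other 3), Loxl2 at 40.3 (19.5 to 21.8) and Ero1a at 16.9 (23.0 to 23.8). In PCOS replicate 3, P4ha2 was at 6.53 FPKM (8.70 to 8.81 in the others) and P4hb at 158 (181 to 184). In Control replicate 3, the carbonic anhydrase Car14 was at 7.74 FPKM (2.33 to 3.04 in the others) and Cul2 at 7.76 (10.6 to 10.9). Limd1 was at 14 FPKM in PCOS replicate 1 (11.8 to 12 in the others). Mmp12 was at 17.2 FPKM in Control replicate 2 (3.92 to 5.56 in the others) and at 0.643 in PCOS replicate 2 (1.5 to 1.53).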

How the results depend on the processing

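Depth is unknown, so counting error at low FPKM (Car9, Egln3, Hif3a) could not be given. With a 2-fold change added to the threshold, the genes called fell to 907 in PCOS against Control and 751 in PCOS-MV against PCOS, other HIF targets to 7 in each, components to 0 in each and members to 0 in the latter. With no filter on low values, 2 members (with Car9) and 5 components were called in PCOS-MV against PCOS. With a filter at a mean of 5 FPKM, 0 members were called in PCOS against Control, since Adm was no longer tested, and 0 genes in PCOS-MV against Control. In 1 model for 12 libraries, 0 components were called in PCOS-MV against PCOS; the cause was not tested.

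The labels give no pairing for the shared replicate numbers, and the correlation of same-numbered libraries was not over 0.1 for every pair: -0.033 to 0.024 in PCOS against Control, 0.035 to 0.172 in PCOS-MV against PCOS (over 0.1 for numbers 1, 2 and 3, each best matched to its own number, and not for 4) and -0.053 to 0.216 in PCOS-MV against Control. The numbers were therefore not taken to pair the libraries. With the replicate block, 2905, 3079 and 0 genes were called in these comparisons, 2 members in PCOS-MV against PCOS (Adm at an adjusted p of 0.0298 in limma) and 1 component in PCOS against Control. Of genes the report names as called, these were not called with the block (limma adjusted p): in PCOS against Control Egln2 (0.0665), Limd1 (0.0670), Os9 (0.110) and Stc2 (0.0625), and in PCOS-MV against PCOS Limd1 (0.0585), Pam (0.0597) and Sesn2 (0.0587).

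The calls of Arnt2 (adjusted p = 0.0672, limma) and Limd1 (0.0547) in PCOS against Control were lost with no filter on low values, that of Egln2 (0.0563) with rescaled libraries and that of Os9 (0.111) in 1 model for 12 libraries.

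With libraries left out in turn, the genes called ranged from 2762 to 3915 in PCOS against Control, 2445 to 3354 in PCOS-MV against PCOS and 1 to 4 in PCOS-MV against Control, members from 1 to 2, 1 to 3 and 0 to 0, and components from 0 to 3, 1 to 4 and 0 to 0. Log2 fold changes that changed sign were not called. In PCOS against Control they were Ddit4 (-0.37 to 0.06) and P4ha1 (-0.13 to 0.13). In PCOS-MV against PCOS they were Egln1 (-0.02 to 0.07, and -0.01 with rescaled libraries), Ddit4 (-0.01 to 0.38) and P4ha1 (-0.14 to 0.05). In PCOS-MV against Control they were Egln3 (-0.49 to 0.06), Ndrg1 (-0.08 to 0.29), Ddit4 (-0.19 to 0.24) and P4ha1 (-0.15 to 0.08).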

Other observations

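PCOS-MV replicates 2 and 4, the libraries highest in Bnip3, were also the highest of their group in several other genes, which were picked after their values were seen and are given with no test. Cited2, a competitor of HIF for its coactivators, was at 120.5 and 189 FPKM in them and at 52.4 and 50.8 in replicates 1 and 3. Ak4, a mitochondrial adenylate kinase and HIF target, was at 5.59 and 6.42 against 1.99 and 2.06, and the lactate exporter Slc16a3 at 2.82 and 2.85 against 0.801 and 0.663. Ndrg2 was at 94.5 and 126 FPKM against 47.3 and 42.8, and Car2 at 29.6 and 42.2 against 4.45 and 3.75. Lhcgr, the luteinizing hormone receptor, was at 15.2 and 26.0 FPKM in them against 97.8 and 57.5, and the luteal markers summed to 2973 and 2969 FPKM against 6931 and 6404. Not every luteal marker was lower in replicates 2 and 4. Sfrp4 was higher, at 9.12 and 7.88 FPKM against 2.49 and 4.00, and Ptgfr was mixed, at 60.2 and 81.5 against 50.3 and 173.

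The marker lists that the report does not describe had these sums. Leukocyte markers summed to 58.1 to 75.6 FPKM in Control, 67.8 to 79.1 in PCOS and 66.4 to 86.6 in PCOS-MV, oocyte markers to 15.2 to 27.5, 21.9 to 28.9 and 17.3 to 26.8, and red blood cell markers to 562 to 1012, 248 to 882 and 174 to 529. Of 6 leukocyte markers tested, 2 were called higher and 0 lower in PCOS against Control, where 11.9% and 15.6% of all genes tested were. In PCOS-MV against PCOS 1 was called higher and 2 lower, where these shares were 14.3% and 11.4%.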
